A study of Mus musculus with 16 samples.

Results

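The early growth response genes Egr1, Egr2, Egr3 and Egr4 and the corepressor genes Nab1 and Nab2 were taken by symbol, through their Ensembl identifiers, as 6 of the 35328 genes in an RNA-Seq count table of mouse dorsal hippocampus. All 6 passed the filter on low counts and were among the 17830 genes tested. The table held 16 male C57Bl6/J mice in 4 groups of 4, and every mouse entered the 2 weeks of treatment at 8 to 9 weeks of age. HC_water and HC_Caffeine were resting mice kept in the home cage, with plain drinking water or caffeine at 0.3 g/L in the drinking water. MWM_water and MWM_Caffeine mice had the same drinks and 3 days of spatial training in the Morris water maze, a hippocampus-dependent task, and their tissue was taken 1 hour after training. They are called learning mice here. Learning was set against rest, so that spatial training cannot be told apart from the swimming and handling that came with it. No group carried a genetic change. The comparisons asked how learning and chronic caffeine, alone and combined, bore on the hippocampal transcriptome.

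Egr proteins are zinc finger transcription factors that bind GC-rich DNA. Their genes are immediate early genes, transcribed within minutes of synaptic activity without new protein synthesis, largely through ERK signaling to serum response factor, which binds the CArG box, and to CREB, which binds the cAMP response element. Egr1 (also Zif268 or NGFI-A) is widely used as a marker of active hippocampal neurons and is needed for lasting synaptic potentiation and memory. Egr2 (Krox20) is best known for hindbrain patterning and for myelination by Schwann cells. Egr3 serves muscle spindle development and hippocampal memory. Egr4 (NGFI-C) is the remaining family member and is best known for its role in male fertility. Nab1 and Nab2 do not bind DNA themselves. They dock on Egr1, Egr2 and Egr3 and mostly repress their targets, and Nab2 is itself a target of Egr factors, which closes a feedback loop.

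Positions are given on mm10 (GRCm38, GENCODE M21 annotation). Egr2 (ENSMUSG00000037868) spans 67535475 to 67542188 on chromosome 10, plus strand, and Nab2 (ENSMUSG00000025402) spans 127660918 to 127668568 on the minus strand of the same chromosome. Egr3 (ENSMUSG00000033730) spans 70077203 to 70082614 on chromosome 14, plus strand. Egr4 (ENSMUSG00000071341) spans 85511121 to 85513589 on chromosome 6, minus strand. Nab1 (ENSMUSG00000002881) spans 52457294 to 52500679 on chromosome 1, minus strand. Nab2 was the only one whose exons overlapped other genes.

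Promoter windows from RefSeq (GRCm38.p6) were matched for 4 of the 6 genes, Egr2, Egr4, Nab1 and Nab2, and not for Egr1 and Egr3. The 250 bases before each start site were searched on both strands for the CArG box, the full cAMP response element TGACGTCA, its half-site TGACG (which lies within the full element), the Egr sites GCGTGGGCG and GCGGGGGCG, and TATAAA. The windows of Egr2 (chr10:67537619-67537868, plus strand) and Egr4 (chr6:85513590-85513839, minus strand) are shown because both genes rose after learning. Egr2 has 5 windows in the RefSeq table, of which only the one at the start site shared with GENCODE was searched. It lies within the span of the gene given above, downstream of its first annotated base. The 29 bases of Nab1 (chr1:52500539-52500567, minus strand, downstream of the GENCODE start of the gene) are shown because they hold a site of the factors that the Nab proteins bind. Each is written 5′ to 3′, and capitals mark the matches.
Egr2: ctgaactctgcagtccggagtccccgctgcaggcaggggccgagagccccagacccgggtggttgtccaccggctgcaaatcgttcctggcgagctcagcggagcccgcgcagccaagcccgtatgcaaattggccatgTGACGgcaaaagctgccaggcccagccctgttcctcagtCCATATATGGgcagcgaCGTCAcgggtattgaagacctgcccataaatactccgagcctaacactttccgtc
Egr4: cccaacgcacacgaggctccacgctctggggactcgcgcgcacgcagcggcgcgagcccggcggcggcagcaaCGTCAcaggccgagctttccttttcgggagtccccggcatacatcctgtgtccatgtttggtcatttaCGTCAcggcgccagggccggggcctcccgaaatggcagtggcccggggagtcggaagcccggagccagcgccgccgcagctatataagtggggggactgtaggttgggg
Nab1: actcggccgcGCGTGGGCGggagccggag

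The Egr2 window held a CArG box at bases -72 to -63, counted back from the start site, and half-sites of the cAMP response element at -111 to -107 and -55 to -51. Egr4 had half-sites at -177 to -173 and -109 to -105 and no CArG box. Nab1 had the Egr site GCGTGGGCG at -141 to -133 on the opposite strand and at -109 to -101, the other form GCGGGGGCG at -38 to -30 and a half-site at -123 to -119. The Nab2 window (chr10:127666704-127666953, minus strand) held none of the searched motifs. It also lies within the span of its gene, downstream of the first annotated base. Of 32817 RefSeq windows of this length, 1.47% held a CArG box, 1.55% the full cAMP response element, 17.7% its half-site, 0.536% GCGTGGGCG, 2.57% GCGGGGGCG and 12.4% TATAAA. A match describes the letters only.

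Library totals ran from 23078094 to 49949281 counts with a median of 36437284.5. Markers of dentate granule, CA1 and CA3 cells and of neurons were present in every library, with the 3 neuronal markers summing to between 3850 and 4679 CPM (read counts normalized to library size with TMM factors). The 5 choroid plexus markers moved with the groups. They summed to 294 to 2298 CPM in home cage water, 184 to 486 in home cage caffeine, 154 to 418 in learning water and 109 to 195 in learning caffeine mice. Of these 5 markers, 3 were called under learning against home cage in water-treated mice, where 0.97% of tested genes were called. Among 4 markers each, 1 of astrocytes and 2 of microglia were called under learning in caffeine-treated mice, where 5.28% of tested genes were called. The summed astrocyte levels were 1402 to 1598 CPM in learning caffeine against 1461 to 1727 CPM in home cage caffeine mice. For microglia they were 161 to 189 against 193 to 199 CPM. The part of these differences in the results below was not tested. In this bulk tissue, fewer cells of a type and less RNA per cell cannot be told apart.

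Per kb of exon, Egr3 and Egr1 were the most abundant of the 6 genes in every group and Egr2 the least. In home cage water mice the level per length was 26.0 ± 2.7 CPM per kb for Egr3 (SD, n = 4 here and below), 16.6 ± 0.68 for Egr1, 15.3 ± 1.3 for Nab2, 7.39 ± 0.32 for Egr4, 6.90 ± 0.68 for Nab1 and 0.131 ± 0.064 for Egr2. Neighbors in this order whose ranges overlapped were Egr1 with Nab2 and Egr4 with Nab1. Home cage caffeine mice kept the order, with Egr3 at 24.5 ± 3.1 and Egr1 at 20.6 ± 2.0, whose ranges now overlapped. After learning Egr1 stood first. It was at 37.9 ± 7.6 against 31.4 ± 1.6 CPM per kb for Egr3 in learning water mice, with overlapping ranges, and at 44.9 ± 2.5 against 33.8 ± 1.9 in learning caffeine mice, without overlap. Egr4 and Nab2 overlapped in both learning groups, at 15.1 ± 3.2 and 19.3 ± 1.8 CPM per kb in water-treated mice and 17.3 ± 1.4 and 17.3 ± 1.9 in caffeine-treated mice. Nab1 lay at 7.32 ± 0.64 and 6.67 ± 0.32 CPM per kb after learning, and Egr2, at 1.64 ± 0.37 and 2.06 ± 0.52, remained the lowest.

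**Figure D1:**
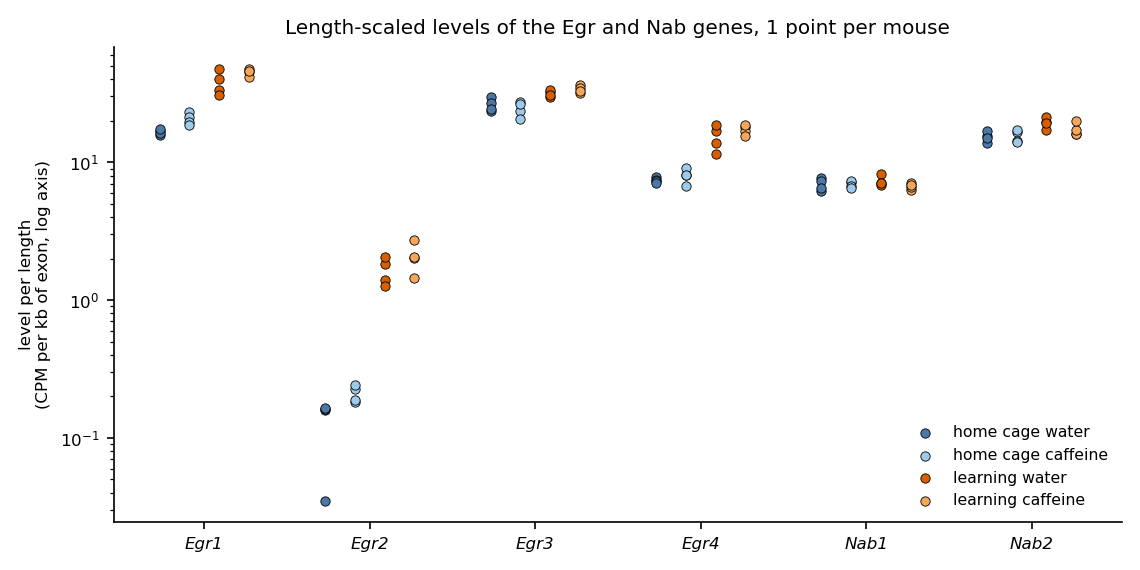
Level per length of each gene in each mouse (CPM per kb of exon, log axis), with 1 point per mouse and colors for the 4 groups. Egr2 lay below the other 5 genes in every group, between 0.0350 and 0.241 CPM per kb in the home cage and between 1.26 and 2.73 after learning.

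Under plain water, learning mice had higher Egr1, Egr2 and Egr4 than home cage mice, and these 3 of the 6 genes passed the test (edgeR quasi-likelihood test, Benjamini-Hochberg adjusted p under 0.1 over all tested genes), where 0.97% of all tested genes did. All 3 were called higher, where 0.639% of tested genes were called higher. The median log2 fold change of the 6 genes was 0.69, beside -0.01 over all tested genes. In 5 of the 6, all but Nab1, the lowest learning water mouse lay above the highest home cage water mouse, which held for 3.87% of tested genes. The p-values weigh the difference between groups against the spread between mice of a group, each mouse being 1 library. That spread was estimated for each gene over all 4 groups together, with information shared between genes.

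Egr1 (ENSMUSG00000038418, chromosome 18, 34859823 to 34864984, plus strand) stood at 76.1, 71.2, 72.7 and 77.8 CPM in the home cage water mice (replicates 6, 8, 11 and 20) and at 149, 179, 214 and 138 CPM in the learning water mice (replicates 24, 33, 36 and 38). The groups were far apart, and the learning mice spread more, with a coefficient of variation of 20.2% against 4.07%. The log2 fold change was 1.19 (SE 0.11, adjusted p = 1.09e-05), a 2.28-fold rise.

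Egr2 rested on few counts in the home cage. Its counts were 3, 17, 16 and 21 in the home cage water mice and 208, 223, 271 and 132 in the learning water mice, or 0.119, 0.541, 0.551 and 0.564 CPM against 4.76, 6.26, 7.02 and 4.30 CPM. The low home cage mouse, replicate 6, had a 95% counting interval of 0.0245 to 0.348 CPM, below the levels of its 3 companions. The counting intervals of replicates 8 and 11 began at 0.315 CPM and overlapped that interval. The log2 fold change of 3.60 (SE 0.28, adjusted p = 4.91e-06) was the highest of the 17830 tested genes, and was 3.35 without replicate 6. Counting intervals cover counting error only.

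Egr4 moved like Egr1. Home cage water mice had 16.8, 15.9, 15.6 and 15.2 CPM and learning water mice 29.4, 36.3, 39.8 and 24.6 CPM, without overlap. Its log2 fold change was 1.04 (SE 0.12, adjusted p = 0.000337).

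Egr3, the most abundant factor at rest, differed little. Home cage water mice had 103, 130, 118 and 107 CPM and learning water mice 131, 142, 146 and 134 CPM, so that the groups were set apart by a narrow margin at replicates 8 and 24. The log2 fold change of 0.27 (SE 0.08) did not pass, with an adjusted p of 0.185. It passed with DESeq2 (adjusted p = 0.0990), and its adjusted p ranged from 0.0773 to 0.417 when each library of the study was left out in turn.

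Neither corepressor passed. Nab2 had 45.3, 40.7, 49.6 and 43.8 CPM in home cage water mice and 50.0, 57.3, 62.7 and 56.5 CPM in learning water mice, again with adjoining ranges. Its log2 fold change of 0.34 (SE 0.09) did not pass (adjusted p = 0.118), although DESeq2 called it (adjusted p = 0.0299) and it passed without home cage caffeine replicate 17, learning water replicate 24 or learning caffeine replicate 40 (adjusted p = 0.0763, 0.0693 and 0.0847). Nab1 had 31.3, 30.0, 25.5 and 26.5 CPM at rest and 33.9, 29.1, 28.2 and 28.8 CPM after learning. These ranges overlapped, and its log2 fold change was 0.09 (SE 0.08, adjusted p = 0.675).

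Nab2 shares exonic positions with 3 genes of the opposite strand, Gm16229, Nemp1 and Stat6. The libraries were stranded, but whether counting used strand is not given in the sources used here. Gm16229 had a mean of 0.0179 CPM and was not tested. Nemp1 (7.46 CPM) and Stat6 (9.30 CPM) had log2 fold changes of -0.08 and -0.11 under water and -0.10 and -0.05 under caffeine, and neither was called.

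**Figure D2:**
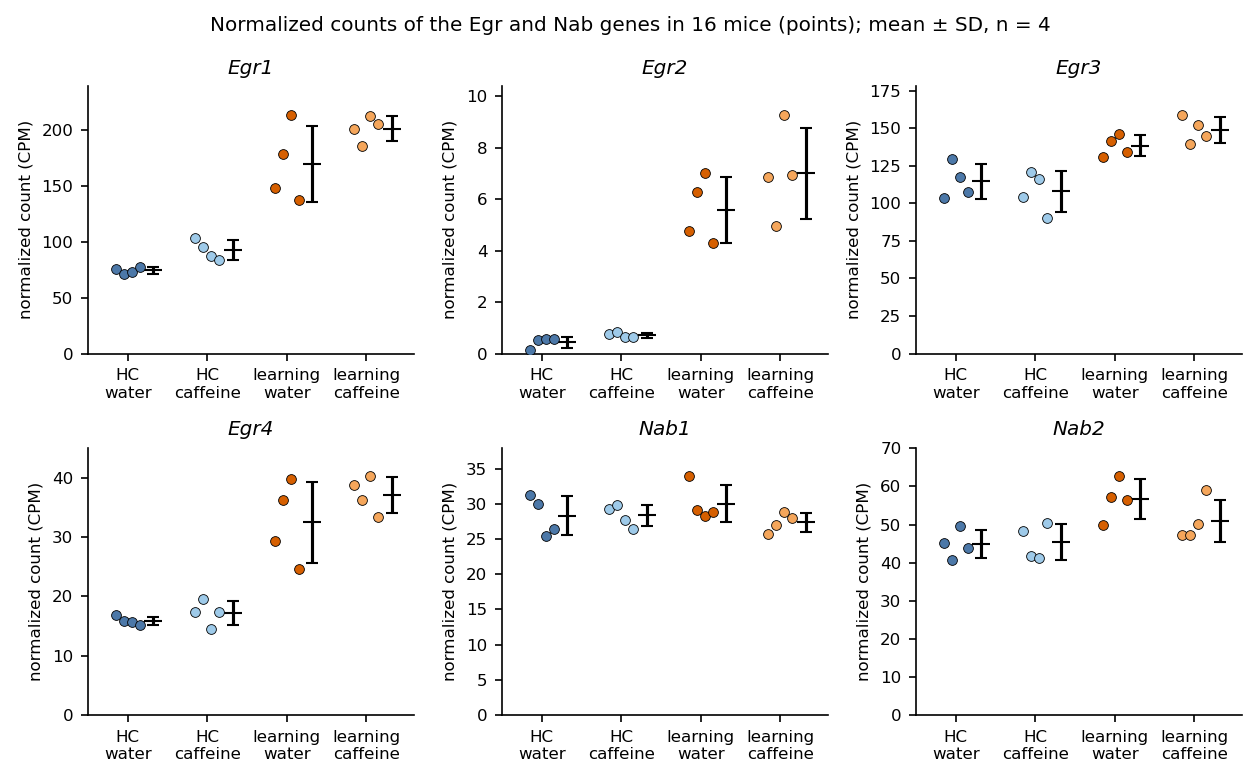
Normalized counts (CPM, axis from 0 in each panel) of the 6 genes, with 1 point per mouse and the mean ± SD of each group of 4 beside the points. Egr1, Egr2 and Egr4 separated all 8 learning mice from all 8 home cage mice by a wide gap and Egr3 by a narrow one, while Nab1 overlapped in every comparison.

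In caffeine-treated mice learning raised the same 3 genes and Egr3 as well, so 4 of the 6 passed where 5.28% of tested genes did. All 4 were called higher, where 3.16% of tested genes were called higher and 2.13% lower. The median log2 fold change of the 6 genes was 0.79, beside -0.01 over all tested genes. The same 4 genes did not overlap between the groups, a pattern found in 5.64% of tested genes. No mouse was shared with the comparison under water.

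Egr1 was at 104, 95.8, 87.2 and 83.7 CPM in home cage caffeine mice (replicates 2, 9, 14 and 17) and at 201, 186, 213 and 206 CPM in learning caffeine mice (replicates 22, 27, 30 and 40). Here the learning mice lay close together, with a coefficient of variation of 5.53%. The log2 fold change was 1.12 (SE 0.11, adjusted p = 2.42e-05).

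Egr2 had 32, 19, 22 and 23 counts at rest and 258, 231, 463 and 254 counts after learning, or 0.775, 0.818, 0.624 and 0.641 CPM against 6.87, 4.94, 9.28 and 6.93 CPM. Replicate 30 was the highest of all 16 mice. With a log2 fold change of 3.30 (SE 0.26, adjusted p = 4.95e-06), Egr2 again ranked 1 of all tested genes.

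Egr4 went from 17.4, 19.5, 14.5 and 17.4 CPM to 38.7, 36.2, 40.3 and 33.4 CPM, a log2 fold change of 1.11 (SE 0.12, adjusted p = 0.000122). Egr3 went from 104, 121, 116 and 90.5 CPM to 159, 140, 152 and 145 CPM. No home cage mouse reached the learning mice for either gene. The Egr3 log2 fold change of 0.47 (SE 0.08) passed with an adjusted p of 0.00788 and stayed past the threshold in all 16 fits that left out 1 library.

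Nab2 had 48.3, 41.7, 41.2 and 50.4 CPM at rest and 47.2, 47.2, 50.2 and 59.0 CPM after learning, and Nab1 had 29.3, 29.9, 27.7 and 26.5 CPM against 25.8, 26.97, 28.8 and 27.9 CPM. Both overlapped. The log2 fold changes were 0.16 (SE 0.09, adjusted p = 0.336) for Nab2 and -0.05 (SE 0.07, adjusted p = 0.749) for Nab1.

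Across both treatments, the lowest of the 8 learning mice lay above the highest of the 8 home cage mice for Egr1, Egr2, Egr3 and Egr4, as it did for 0.953% of tested genes. Averaged over both treatments, a contrast added after seeing the data, 5 of the 6 genes passed and rose, where 14.5% of tested genes passed, 7.81% higher and 6.71% lower. Egr3 had an averaged log2 fold change of 0.37 (SE 0.06, adjusted p = 0.00142) and Nab2 one of 0.25 (SE 0.06, adjusted p = 0.0243). Nab1, at 0.02 (SE 0.05, adjusted p = 0.863), was the remaining gene, with a 95% interval of -0.09 to 0.13. Egr1, Egr2 and Egr4 passed under both treatments in all 16 fits that left out 1 library.

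**Figure D3:**
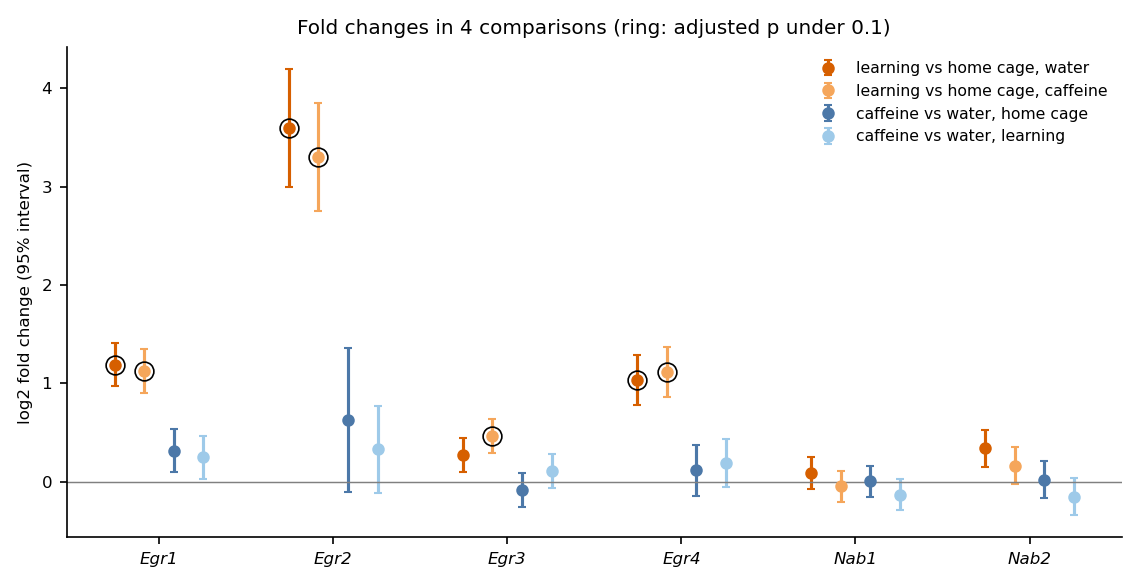
Log2 fold changes of the 6 genes with 95% intervals in the 2 learning comparisons and the 2 caffeine comparisons, with rings for adjusted p under 0.1. Egr2 stood near 3.60 and 3.30, Egr1 and Egr4 near 1, and no caffeine comparison carried a ring.

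Caffeine against water, in the same mice as the learning comparisons, gave no called gene among the 6. In the home cage 0.0% of tested genes were called by edgeR, with 636 of 17830 genes (3.57%) at an unadjusted p under 0.05 and 19 called by DESeq2, none of them a member of the family. Egr1 was 1.24-fold higher in home cage caffeine than in home cage water mice, at 92.6 ± 8.9 against 74.5 ± 3.0 CPM, and all 4 caffeine-treated mice lay above all 4 water-treated ones. Egr2, at 0.715 ± 0.097 against 0.444 ± 0.22 CPM, also did not overlap. That made 2 of the 6 genes, beside 0.981% of tested genes. Neither passed. The log2 fold change was 0.31 for Egr1 (SE 0.11, unadjusted p = 0.00816, adjusted p = 0.997) and 0.62 for Egr2 (SE 0.35, unadjusted p = 0.0897, adjusted p = 0.997), and the Egr2 value was 0.36 without home cage water replicate 6. Egr3, Egr4, Nab1 and Nab2 overlapped, with log2 fold changes of -0.09, 0.11, 0.00 and 0.02.

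After learning, 0.0% of tested genes were called between caffeine and water by edgeR, with 700 (3.93%) at an unadjusted p under 0.05 and 6 called by DESeq2, again none of the 6 genes. All 6 overlapped between the groups. Among tested genes, 1.25% did not overlap with caffeine higher and 1.35% did not overlap with caffeine lower. Egr1 was at 202 ± 11 CPM in learning caffeine and 170 ± 34 CPM in learning water mice, a log2 fold change of 0.25 (SE 0.10, unadjusted p = 0.0284, adjusted p = 0.999). It was 0.38 without learning water replicate 36 and 0.16 without replicate 38 (unadjusted p = 0.000366 and 0.113, adjusted p = 0.55 and 1). For Egr4 the same left-out mice gave 0.31 and 0.08, beside 0.19 in all mice, and the Egr2 value was 0.16 without learning caffeine replicate 30. The values for Egr2, Egr3 and Egr4 were 0.33, 0.11 and 0.19, and those for Nab1 and Nab2 were -0.13 and -0.15, each with a 95% interval that included 0. Averaged over home cage and learning, a contrast also added after seeing the data, edgeR called no gene (0.0%), with 726 (4.07%) at an unadjusted p under 0.05. Egr1 had an averaged log2 fold change of 0.28 (SE 0.07, unadjusted p = 0.00136, adjusted p = 0.671) and Egr2 one of 0.48 (SE 0.20, unadjusted p = 0.0310, adjusted p = 0.985).

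The difference between the learning responses, caffeine minus water, was called for 0.0% of tested genes by edgeR, with 648 (3.63%) at an unadjusted p under 0.05 and 6 called by DESeq2, none of them among the 6. On the log2 scale the difference was -0.07 for Egr1 (95% interval -0.38 to 0.24), -0.30 for Egr2 (-1.15 to 0.55), 0.19 for Egr3 (-0.05 to 0.44) and 0.08 for Egr4 (-0.28 to 0.43). It was -0.14 for Nab1 (-0.36 to 0.09) and -0.17 for Nab2 (-0.44 to 0.09). The difference did not pass for Egr3 (unadjusted p = 0.118), which was called under caffeine and not under water. The Egr2 difference was -0.0314 without home cage water replicate 6, and ranged from -0.47 to -0.0314 over the fits that left out 1 library. Egr2 had the widest interval of the 6.

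Ratios within a mouse do not depend on library scaling, and were taken per length. The log2 ratio of Egr2 to Egr1 was -8.70, -6.60, -6.60 and -6.67 in home cage water mice. Under caffeine at rest it was -6.64, -6.43, -6.69 and -6.60. After learning it was -4.56, -4.43, -4.53 and -4.60 in water-treated and -4.47, -4.83, -4.12 and -4.49 in caffeine-treated mice. Apart from home cage water replicate 6, the ratio was nearly constant among resting mice, and all learning mice lay higher. Learning minus home cage was 2.36 (exact permutation test within treatments, two-sided, p = 0.000408, adjusted over 5 ratios p = 0.00068), the smallest p that 4900 assignments can give, and 2.10 without replicate 6.

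Egr3 moved the other way relative to Egr1. The log2 ratio of Egr3 to Egr1 was 0.64 ± 0.20 in home cage water, 0.24 ± 0.19 in home cage caffeine, -0.25 ± 0.22 in learning water and -0.41 ± 0.08 in learning caffeine mice (SD). It was above 0 in all 8 home cage mice and below 0 in all 8 learning mice. Learning minus home cage was -0.77 (exact permutation test, p = 0.000408, adjusted p = 0.00068).

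For Egr4 to Egr1 the log2 ratio was -1.17 ± 0.09, -1.37 ± 0.17, -1.33 ± 0.08 and -1.38 ± 0.12 in the same order of groups. The groups overlapped and the difference of -0.09 did not pass (exact permutation test, p = 0.18, adjusted p = 0.18). Between the corepressors the log2 ratio of Nab2 to Nab1 was 1.14 ± 0.23, 1.15 ± 0.20, 1.39 ± 0.25 and 1.37 ± 0.13. Learning minus home cage was 0.23 (exact permutation test, p = 0.0404, adjusted p = 0.0505), and 0.25 and 0.22 within water-treated and caffeine-treated mice, where neither passed (exact permutation test, adjusted p = 0.143 and 0.179).

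**Figure D4:**
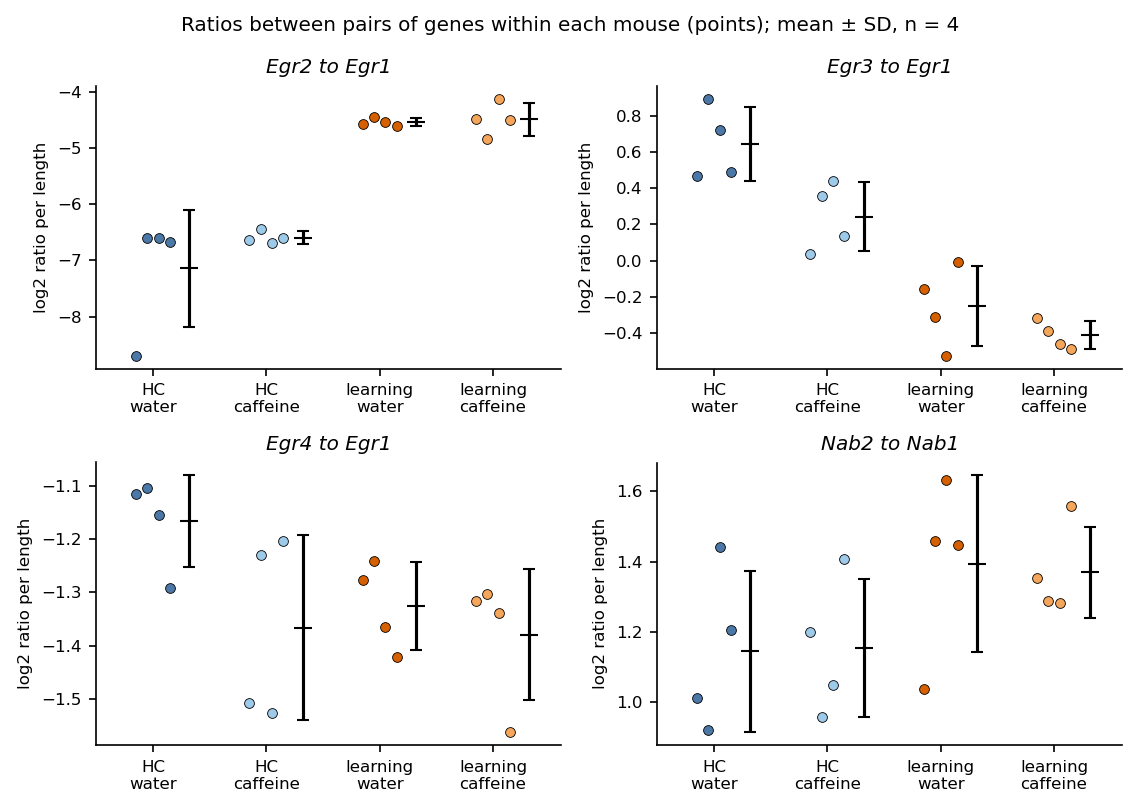
Log2 ratio of length-scaled levels between pairs of genes in each mouse, with the mean ± SD of each group of 4 beside the points. Egr2 to Egr1 rose by 2.36 and Egr3 to Egr1 fell by 0.77 with learning, while Egr4 to Egr1 overlapped between groups.

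The makeup of the Egr transcripts shifted accordingly. As a share of the length-scaled sum over the 4 Egr genes, Egr3 made up 51.8% ± 3.2 in home cage water, 45.8% ± 3.4 in home cage caffeine, 36.9% ± 3.7 in learning water and 34.5% ± 1.0 in learning caffeine mice. Egr1 made up 33.2% ± 2.6, 38.7% ± 2.4, 43.8% ± 2.4 and 45.8% ± 1.4. Egr4 stayed between 14.8% and 17.6% in the group means. Egr2, with the highest fold change, made up 0.258% ± 0.12, 0.393% ± 0.031, 1.89% ± 0.16 and 2.09% ± 0.43. The sum itself was 50.2 ± 2.0, 53.4 ± 4.5, 86.1 ± 13 and 98.1 ± 5.2 CPM per kb, beside 22.2 ± 1.0, 22.4 ± 1.5, 26.6 ± 1.2 and 23.97 ± 2.07 for the sum of Nab1 and Nab2. The log2 ratio of these 2 sums, also among the 5 ratios tested, was 1.18 ± 0.11, 1.25 ± 0.19, 1.68 ± 0.16 and 2.03 ± 0.14. Learning minus home cage was 0.64 (exact permutation test, p = 0.000408, adjusted p = 0.00068).

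Deviations of single mice from their group were read across the genes. Among learning water mice, replicate 36 was highest and replicate 38 lowest for Egr1, Egr2 and Egr4, with replicates 33 and 24 between them in the same order for all 3 genes. For Egr3 replicate 36 was also highest, but replicate 24 was lowest. In learning caffeine mice replicate 30 was highest for Egr1, Egr2 and Egr4 and replicate 27 lowest for Egr1, Egr2 and Egr3. Home cage mice showed no common order.

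Over all 16 mice, none of the 15 pairs of genes passed a test of correlated deviations from the group means (exact permutation within groups, adjusted p under 0.1), and 1 pair, Egr1 with Egr4, had an unadjusted p under 0.05. Its Pearson r was 0.78 (exact permutation p = 0.0360, adjusted p = 0.427) and its Spearman rho 0.69 (exact permutation p = 0.0561, adjusted p = 0.381). Without the 2 mice farthest from the median of Egr1, r was 0.50. For Egr1 with Egr2, r was 0.30 (exact permutation p = 0.0854, adjusted p = 0.427), rho was 0.56 (exact permutation p = 0.0146, adjusted p = 0.219) and r without the 2 farthest mice was 0.19. Without home cage water replicate 6 the pairs Egr1 with Egr2 and Egr2 with Egr4 passed (exact permutation, adjusted p = 0.00814 and 0.0813).

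**Figure D5:**
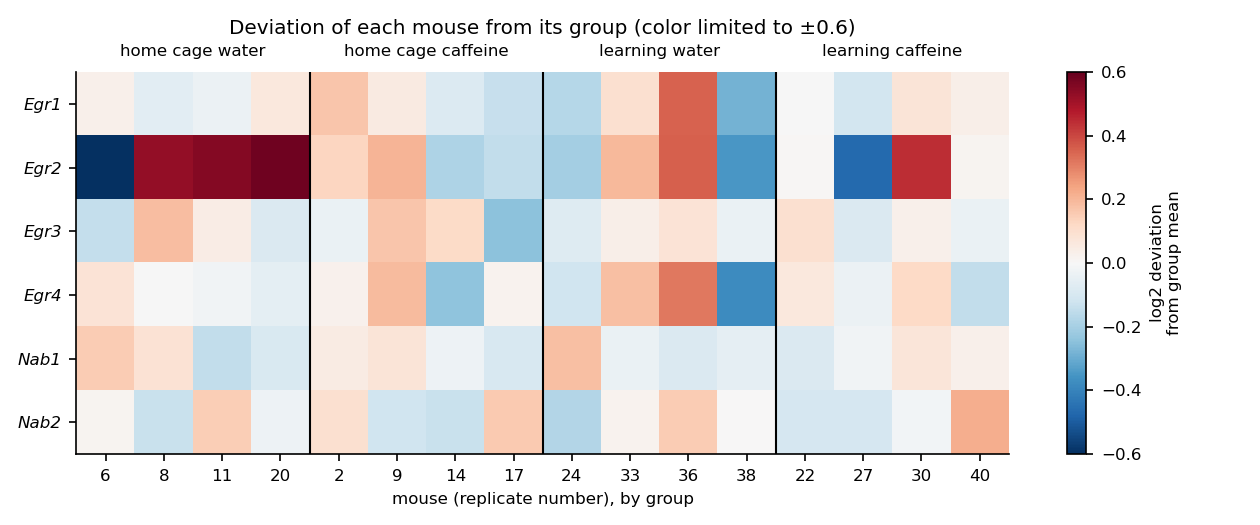
Deviation of each mouse from its group mean for each gene (log2 scale, color limited to ±0.6), with mice in columns by group. Egr1, Egr2, Egr3 and Egr4 shared the sign of their deviation in all 4 learning water mice. Egr2 in home cage water replicate 6 lay at -1.66, beyond the color range.

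The genes whose pattern over the 16 libraries was most like each of the 6 were found by the root mean square difference of z scores of log2 CPM, among the 13378 genes whose average log2 CPM reached 1. Egr1 and Egr4 were near neighbors of each other at 0.21, and Fosb, the FosB transcription factor gene, was the other near gene of both, at 0.23 from Egr1 and 0.18 from Egr4. Fos, the best-known immediate early factor, was nearest to Egr2 at 0.26, followed by Dnajb5, a heat shock cochaperone gene, at 0.27. Egr3 was nearest to Sfpq, a splicing factor gene, at 0.25 and Homer1, a postsynaptic scaffold gene, at 0.26. The median over all genes was between 1.36 and 1.38.

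Egr3 was less like the other factors than they were like each other. Among the genes ordered by likeness to Egr1, Egr4 ranked 1, Egr2 ranked 3, Egr3 ranked 128, Nab2 ranked 690 and Nab1 ranked 6774. The nearest genes to Nab2 were Klf10, a zinc finger repressor gene, and Bcorl1, a corepressor gene, both at 0.44. Those to Nab1 were Tmem229a at 0.40 and Kat2b, a histone acetyltransferase gene, at 0.46. The learning groups enter these differences together with the spread between mice.

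Genes upstream of Egr induction were 17 kinases and factors of the ERK, serum response factor and CREB routes. None was called under learning in water-treated mice, where 0.97% of tested genes were called. In caffeine-treated mice 1 rose, where 3.16% of tested genes were called higher. The median log2 fold changes were 0.05 and 0.11, beside -0.01 and -0.01 over all tested genes. The gene that rose was Mrtfa, a coactivator of serum response factor, with a log2 fold change of 0.29 (SE 0.05, adjusted p = 0.00936). Averaged over both treatments, where 7.81% of tested genes were called higher, 5 rose, among them Mrtfa at 0.24, Creb1 at 0.23, Srf, the serum response factor gene, at 0.17 and Rps6ka3, an ERK-activated kinase gene, at 0.19 (adjusted p = 0.00109, 0.0334, 0.0368 and 0.0585). No gene of this or the following lists was called in a caffeine comparison.

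Of 18 genes reported as direct Egr targets, 1 rose in water-treated mice, where 0.639% of tested genes were called higher. In caffeine-treated mice 1 rose and 1 fell. The median log2 fold changes were 0.02 and 0.03, beside -0.01 and -0.01 over all tested genes. Under caffeine, where 3.16% of tested genes were called higher and 2.13% lower, these counts are near the background. Arc, which encodes a synaptic plasticity protein and is an immediate early gene itself, was the one that rose, by log2 fold changes of 1.27 (SE 0.19, adjusted p = 0.00427) and 0.84 (SE 0.19, adjusted p = 0.0260). Mmp14, a membrane metalloproteinase gene, fell by 0.38 on the log2 scale in caffeine-treated mice (SE 0.11, adjusted p = 0.0809). In the average over treatments 2 of the 18 rose and 2 fell, where 7.81% of tested genes were called higher and 6.71% lower. Arc rose by 1.06 and Bace1, the beta-secretase gene, by 0.10 (adjusted p = 0.000242 and 0.0945). Ngfr, a neurotrophin receptor gene, fell by 0.55 and Mmp14 by 0.25 (adjusted p = 0.0318 and 0.0615). None of the 13 genes of the NuRD complex, a chromatin remodeler reported to work with Nab proteins, was called under either treatment. Under water 0.97% and under caffeine 5.28% of tested genes were called. The NuRD medians were 0.02 and 0.02, and Mta3 alone rose in the average, by 0.16 (adjusted p = 0.0699), where 7.81% of tested genes were called higher.

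Of 12 other immediate early genes, 6 rose in water-treated and 5 in caffeine-treated mice and none fell, where 0.639% and 3.16% of tested genes were called higher. Their median log2 fold changes were 0.49 and 0.22, beside -0.01 and -0.01 over all tested genes. Fos had log2 fold changes of 2.39 and 1.57 under water and caffeine, Fosb 0.999 and 1.22, Junb 0.76 and 0.72, and Fosl2 0.53 and 0.67, all called. The learning log2 fold changes of Egr1 and Egr4 thus lay between those of Fos and Junb under both treatments, and that of Egr3 lay below Junb under both. Mean Fos was 13.3 CPM in learning water and 14.2 CPM in learning caffeine mice. Its caffeine against water log2 fold change was 0.92 in the home cage (edgeR, unadjusted p = 0.000452, adjusted p = 0.444) and 0.099 after learning (adjusted p = 0.999). For caffeine against water, all 12 genes had positive log2 fold changes in the home cage (median 0.14) and 8 did after learning (median 0.08). None was called.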

How the data were processed

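The 16 RNA-Seq libraries, 1 per mouse, were grouped by their sample titles. The authors prepared stranded poly(A) libraries, aligned single-end reads to mm10 with STAR and Bowtie 2, kept unique alignments and counted them per Ensembl gene with HTSeq-count (STAR and HTSeq 0.6.1p1 per the labels). They deposited raw read counts, without normalization or molecular identifiers. Strand use in counting and the STAR version are not given in the labels used here.

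From these counts, edgeR 4.0.16 in R 4.3.3 was used with TMM factors, filterByExpr (17830 of 35328 genes), a mean per group over all 16 libraries and the quasi-likelihood test. P-values were adjusted by Benjamini-Hochberg over all tested genes and genes were called under 0.1. DESeq2 1.42.0 was an alternative. Gene symbols, positions and exon lengths came from GENCODE M21, which matched 35247 genes. CPM values are relative to the TMM-scaled library total. Ratios within a mouse had 0.5 added to each count. Library totals of 23078094 to 49949281 counts gave a median standard error of 0.10 (log2) per gene for learning against home cage under water. No 2 libraries of a group looked like 1 library deposited again, since chi-square over degrees of freedom was at least 5.65 in each of 24 pairs. On simulated counts for learning against home cage under water, edgeR called 34, 41, 49 and 49 of 50 genes changed by 0.5, 1, 2 and 3.5 on the log2 scale. DESeq2 called 34, 40, 49 and 50. Among 17630 unchanged genes, edgeR called 19 and DESeq2 called 48, so that DESeq2 made more false calls in this simulation.

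Alternatives were other scalings, filters and thresholds, thinned libraries, only the compared groups, and each library left out. The genes, lists and tests were chosen with earlier results of these data known. Named genes are the 6, the 2 genes most like each by z scores, and at most 4 genes of each list (upstream, Egr targets, peripheral myelin, NuRD, related zinc fingers, immediate early genes) that were called in any contrast, those of smallest adjusted p where more were called.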

Additional observations from a re-analysis of the deposited data

Results flagged for a closer look

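Each group of 4 mice was examined for a mouse far from the other 3, by the gap to its nearest neighbor relative to the group's range, for the CPM of the 6 genes and the log2 ratios. Of 44 groups examined 4 were flagged, where chance flags about 1 in 20. In home cage water mice, replicate 6 had 0.119 CPM of Egr2 (3 counts), below its 3 companions. The same mouse had the lowest log2 ratio of Egr2 to Egr1, at -8.70. In learning water mice, replicate 24 had 33.9 CPM of Nab1, above the other 3. This library also had the highest summed level of 4 oligodendrocyte markers, at 9227 CPM against 3964 to 4616 CPM in the other learning water mice, and their part in the Nab1 value was not tested. In learning caffeine mice, replicate 40 had the lowest log2 ratio of Egr4 to Egr1, at -1.56.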

How the results depend on the processing

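Of the 6 genes, 3 were called for learning under water. The count was 5 with the DESeq2 Wald test on 16 libraries, 5 on genes with at least 1 count in total and 5 in the added average over treatments, and 3 to 5 with each library left out, 5 without home cage caffeine replicate 17. Egr3 and Nab2 were the genes gained. With at least 10 counts required in every library the counts were 2 under water and 3 under caffeine, since Egr2 did not pass that filter. The Nab2 to Nab1 log2 ratio no longer passed in water-treated mice alone (0.25) or caffeine-treated mice alone (0.22). The Egr4 to Egr1 difference ranged from -0.123 to -0.0564 with a library left out, and passed without home cage caffeine replicate 2 (-0.12, exact permutation, adjusted p = 0.0857) or 14 (-0.12, adjusted p = 0.0690). The number of correlated pairs ranged from 0 to 2, with 2 without home cage water replicate 6, in the left-out alternative chosen after seeing the data. Uncalled values changed sign with 1 library left out for caffeine in the home cage, where Nab1 ranged from -0.0396 to 0.0539 and Nab2 from -0.0320 to 0.0761, and for the difference between learning responses, where Egr1 ranged from -0.154 to 0.0644 and Egr4 from -0.0322 to 0.190. The cause of these changes was not tested, apart from the filter on Egr2. Over all genes tested, DESeq2 called 427 genes for learning under water, where edgeR called 173, and 1561 under caffeine, where edgeR called 942. No paired analysis was possible because the replicate numbers are mouse numbers that the groups do not share. Depth limits the home cage values of Egr2, which rest on 3 to 32 counts per library.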

Other observations

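Egr2 is the master factor of myelin genes in Schwann cells, so 5 tested genes known as its targets in peripheral myelin were read beside it. Under water, none of the 5 was called with learning, and their median log2 fold change was 0.20. In caffeine-treated mice Pmp22, a peripheral myelin protein gene, fell by 0.49 on the log2 scale (SE 0.11, adjusted p = 0.0343), and the median of the 5 was -0.48. The 4 oligodendrocyte markers, of which Mbp and Mag are also in this list, summed to 4158 to 7005 CPM in home cage caffeine and 3738 to 5058 CPM in learning caffeine mice, and none of them was called. Their part in the Pmp22 value was not tested.

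Of 8 zinc finger factors related in their GC-rich binding sites 7 were tested, and none was called under either treatment, with medians of 0.14 and 0.08. Under water 0.97% and under caffeine 5.28% of tested genes were called. In the average over treatments, added after seeing the data, Klf4 rose by 0.45, Klf9 by 0.24 and Sp3 by 0.16 on the log2 scale (adjusted p = 0.0468, 0.0584 and 0.0981), where 7.81% of tested genes were called higher.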
